A study of Mus musculus with 38 samples.

Results

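The anterodorsal BNST (adBNST; BNST, bed nucleus of the stria terminalis) was microdissected from wild-type mice, and members were chosen by a measured value, the libraries being split by how much Esr1 mRNA each dissection held. Counts of reads per gene were scaled to a common library total (CPM), the 5 libraries with more than 7300 CPM of Mbp, the myelin basic protein gene, were left out, and the 33 others were ranked by Esr1. The 11 libraries at the top form the Esr1-high side and the 11 at the bottom the Esr1-low side, so that 22 of the 38 libraries are members. The study had 4 groups, all of wild-type genotype: 9 libraries of stressed females, 9 of stressed males, 10 of control females and 10 of control males. Stressed mice had gone through 6 weeks of variable mild stressors such as restraint, forced swim, isolation and changed bedding or lighting. Strain and age were not given in the sources used here, nor is it said whether a library came from 1 mouse, so the p-values measure the spread between these libraries. Libraries are named below by group and number: FS for stressed females, MS for stressed males, FC for control females and MC for control males.

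Esr1 encodes estrogen receptor alpha, a transcription factor that is switched on by estradiol. In the rodent forebrain it marks neurons of circuits for mating, parenting and aggression, and it is dense in the principal nucleus of the BNST, the medial amygdala and the medial preoptic area. The adBNST itself is a largely GABAergic nucleus of the extended amygdala, and it lies between the striatum, the septum and the preoptic area. A hand dissection of so small a nucleus can hold tissue of each of these neighbours. Levels of 17 marker genes of the adBNST and extended amygdala were read beside the label. Each of the 17 was detected well enough to be tested, and their summed level was 3768 to 4265 CPM on the Esr1-high side, against 3877 to 4561 CPM on the Esr1-low side. The 5 libraries left out for Mbp had 4110 to 6397 CPM, and their striatal markers summed to 4775 to 9252 CPM. Penk is in both lists, and the levels of these markers do not test the label. Gad1, which makes GABA, had 602 to 802 CPM on the Esr1-high side and 565 to 732 CPM on the Esr1-low side.

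Esr1 lies at chr10:4611989-5005633 (mm10). On the Esr1-high side its level was lowest in FC4, at 18.8 CPM, and highest in FC10, at 41.4 CPM, with a median of 20.6 CPM. The Esr1-low side ran between 7.503 CPM in MC6 and 13.2 CPM in MS6, with a median of 10.96 CPM. The members were selected on these Esr1 values and on Mbp, so they carry no test. The means were 23.3 ± 6.68 CPM on the Esr1-high side and 10.5 ± 1.81 CPM on the Esr1-low side (SD, n = 11 each). Just outside the Esr1-high side stood MS8 at 18.3 CPM, and just outside the Esr1-low side stood MC1 at 13.6 CPM, so no gap separates the sides from the middle of the ranking. The 5 libraries left out for Mbp held 2.26 to 16.2 CPM of Esr1 with 8705 to 11610 CPM of Mbp. Behind the levels are 432 to 1256 Esr1 reads a library on the Esr1-high side and 156 to 458 on the Esr1-low side.

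**Figure D1:**
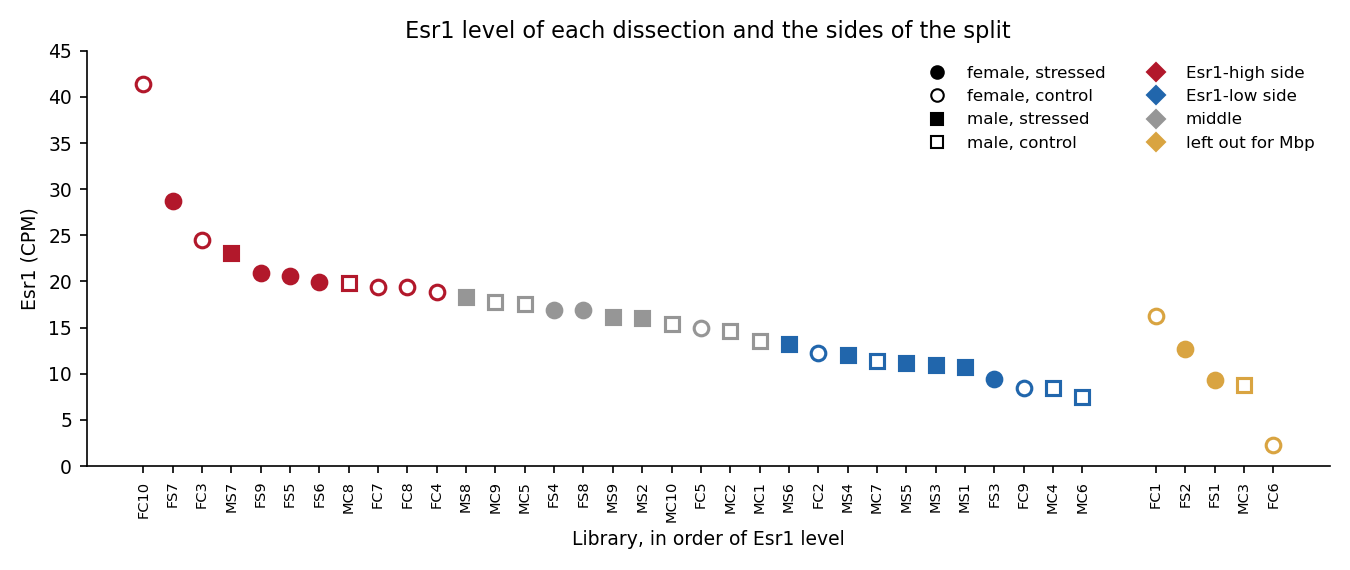
Esr1 level (CPM, vertical axis) of the 38 libraries in order of the ranking, with symbols for the study group and colours for the Esr1-high side, the middle, the Esr1-low side and the 5 libraries left out for Mbp. FC10 stands apart at 41.4 CPM, and the other ranked libraries form a continuous slope through both borders.

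The Esr1-high side held 4 FS, 1 MS, 5 FC and 1 MC libraries, and the Esr1-low side held 1 FS, 5 MS, 2 FC and 3 MC libraries. Stress was spread evenly, with 5 stressed libraries on the Esr1-high side and 6 on the Esr1-low side (Fisher's exact test, p = 1). Sex was less even, with 9 females and 2 males on the Esr1-high side against 3 females and 8 males on the Esr1-low side. That difference gave a two-sided Fisher's exact p of 0.030, and 0.0899 after Benjamini-Hochberg adjustment over the 3 label tests. Libraries whose label number is 6 or above made up 8 of 11 on the Esr1-high side and 4 of 11 on the Esr1-low side (exact p = 0.198, adjusted 0.298). Mbp, a gene of the rule, ran from 1861 to 4422 CPM (median 2650) on the Esr1-high side and from 2051 to 6353 CPM (median 4403) on the Esr1-low side. Among numbers 6 and above its medians were 2378 CPM on the Esr1-high side and 2410 CPM on the Esr1-low side. Among numbers up to 5 they were 3918 and 4403 CPM. MS5, on the Esr1-low side, stands apart by markers of the choroid plexus, the tissue that makes cerebrospinal fluid: 10 of them summed to 3273 CPM there and to 28.9 to 80.8 CPM in the other libraries, and the choroid plexus gene Ttr reached 2869 CPM. Without MS5, 21 genes were called higher and 1 lower in the comparison below. Unless other terms are named, genes below were compared with sex, treatment and number set (up to 5, or 6 and above) as terms. A fit within a sex or within a number set leaves out that term. Since the sides differ in sex, levels are given by sex where the sexes differ.

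Esr1-high dissections carried more mRNA of a small set of receptors, transcription factors and adhesion genes. With edgeR's quasi-likelihood test and Benjamini-Hochberg adjustment over 15870 genes, 16 genes were higher on the Esr1-high side, which is 0.101% of those tested, and 1 was lower (0.0063%). Esr1 and Mbp were not tested, since they set the rule. An unadjusted p under 0.05 was reached by 2293 genes. The 17 calls include 3 peptide receptor genes (Trhr, Brs3 and Hcrtr2), the other estrogen receptor gene (Esr2), the estrogen-linked Greb1, the transcription factor Nr2f2, the peptide gene Adcyap1, the glutamate receptor gene Grik1 and the adhesion genes Gldn, Pcdh7 and Pcdh17. In bulk tissue a lower level from fewer cells of a type cannot be told apart from one due to less RNA per cell, and the p-values describe which genes moved with a measured transcript, not with an assigned condition.

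The call count rests on single libraries. Without FC3, FS3, MS7, MC7 or FC9 the Trhr gene was the sole call, and without FS9, MC6, FS7, MS3 or MS4 the genes called higher numbered 4, 5, 6, 6 and 8 in that order. Leaving out FS6, MC8, FC10, FC2 or FS5 instead gave 25, 26, 32, 34 and 64 genes called higher, the last with 19 called lower. Genes called lower numbered 0 to 8 in the refits without the other libraries just named, 3 without MS6 and 0 without FC4. The 17 genes kept their direction under each of the 22 other settings tried, while the number still called ran from 0 to 17. Each of these settings shares libraries with the fit that made the calls, so the kept direction is no independent support.

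Trhr, the receptor for thyrotropin-releasing hormone, was the call that stood in each of the 22 refits without 1 library. In females it had 13.0, 17.01 and 23.4 CPM (lowest, median, highest of 9) on the Esr1-high side, against 7.28, 9.54 and 10.4 CPM in the 3 females of the Esr1-low side. The 2 Esr1-high males had 21.8 and 30.2 CPM, and the 8 Esr1-low males had 10.2, 11.7 and 13.4 CPM (lowest, median, highest). The sides did not overlap in either sex, and the fitted log2 difference was 0.97 ± 0.13 (SE; edgeR adjusted p = 0.00149). Brs3, an orphan receptor of the bombesin receptor family that takes part in energy balance, had 5.84, 8.23 and 12.2 CPM on the Esr1-high side (lowest, median and highest of 11), against 3.02, 4.17 and 5.597 CPM on the Esr1-low side. It was the 1 gene of the 15870 (0.0063%) whose sides did not overlap over both sexes, and its log2 difference was 0.88 ± 0.15 (adjusted p = 0.027). Hcrtr2, a receptor for the arousal peptide orexin, overlapped in both sexes. Its levels were 3.11, 4.16 and 5.14 CPM in Esr1-high females against 2.01, 2.27 and 3.57 CPM in Esr1-low females, and 3.37 and 5.51 CPM in Esr1-high males against 1.38, 3.53 and 4.91 CPM in Esr1-low males. The log2 difference of Hcrtr2 was 0.83 ± 0.17 (adjusted p = 0.0498), and 9 of 22 refits kept its call.

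Esr2, which encodes estrogen receptor beta, was the steroid receptor gene called. Esr1-high females had 3.08, 5.91 and 11.2 CPM of Esr2 and Esr1-low females 1.48, 1.55 and 1.70 CPM. Esr1-high males had 6.23 and 10.2 CPM, and Esr1-low males had 1.29, 2.83 and 5.77 CPM. All Esr1-high libraries thus stood above the Esr1-low libraries of their own sex, and the log2 difference was 1.53 ± 0.29 (adjusted p = 0.0376; called in 13 of 22 refits). Of 9 steroid and related receptors in the list, 6 had a difference above 0, with a list median of 0.20 against -0.02 over all genes tested. The progesterone receptor gene Pgr (log2 difference 0.31, adjusted p = 0.241) and the glucocorticoid receptor gene Nr3c1 (0.20, adjusted p = 0.275) did not pass. The mineralocorticoid receptor gene Nr3c2 differed by 0.07 (adjusted p = 0.722).

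Greb1, known from human breast cancer cells as an estrogen-induced partner of the estrogen receptor, was much higher in males than in females on both sides. Esr1-high females had 4.83, 7.51 and 19.9 CPM, against 2.60 CPM at the median and 2.84 CPM at most in Esr1-low females. Esr1-high males had 33.2 and 70.5 CPM, against 13.5, 14.6 and 22.6 CPM in Esr1-low males. The sides did not overlap within either sex, with a log2 difference of 1.63 ± 0.33 (adjusted p = 0.0462; 11 of 22 refits). Taken over both sexes the medians run the other way, 8.90 CPM on the Esr1-high side and 14.0 CPM on the Esr1-low side, since females fill the Esr1-high side. Grik1 and Cyp19a1 show the same turn between pooled and within-sex levels. Cyp19a1, which encodes aromatase, the enzyme that makes estradiol from testosterone, had 0.914, 1.81 and 4.91 CPM in Esr1-high females against 0.258, 0.725 and 0.783 CPM in Esr1-low females. In males Cyp19a1 was 5.07 and 9.86 CPM on the Esr1-high side, against 1.64, 2.62 and 3.81 CPM on the Esr1-low side. Its log2 difference of 1.38 ± 0.32 did not pass (adjusted p = 0.0774).

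Promoter sequences were read from RefSeq for the called genes, because Esr1 and Esr2 proteins bind DNA at estrogen response elements. Windows of 250 bases upstream of annotated starts were found for 12 of the 17 called genes. The full palindromic element (GGTCA and TGACC with any 3 bases between them, which reads the same on both strands) was in 0 of the 12, and in 0.0639% of 32851 promoter windows of this length. The half-site AGGTCA, searched on both strands, was in 14.0% of all windows and in those of 3 of the 12 genes, Greb1, Hcrtr2 and Fstl5. Greb1, Fstl5 and Adcyap1 have more windows than the others, so the share of windows and the count of genes are not like measures. The other windows of Greb1 and Fstl5 held no half-site. The 3 windows with a half-site are shown 5′ to 3′ on the gene's strand (RefSeq, GRCm38.p6), with the half-site in capitals, as TGACCT where it lies on the other strand. They are Greb1 at chr12:16800887-16801136 on the minus strand, Hcrtr2 at chr9:76323624-76323873 on the minus strand and Fstl5, by its second annotated start, at chr3:76075333-76075582 on the plus strand. The half-site begins 88 bases before the start of Greb1, 170 before that of Hcrtr2 and 216 before that of Fstl5.
Greb1: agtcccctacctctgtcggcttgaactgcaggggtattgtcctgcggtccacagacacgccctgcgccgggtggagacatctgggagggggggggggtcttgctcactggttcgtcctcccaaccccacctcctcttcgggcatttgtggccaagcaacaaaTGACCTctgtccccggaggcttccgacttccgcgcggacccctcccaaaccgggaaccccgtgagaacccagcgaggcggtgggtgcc
Hcrtr2: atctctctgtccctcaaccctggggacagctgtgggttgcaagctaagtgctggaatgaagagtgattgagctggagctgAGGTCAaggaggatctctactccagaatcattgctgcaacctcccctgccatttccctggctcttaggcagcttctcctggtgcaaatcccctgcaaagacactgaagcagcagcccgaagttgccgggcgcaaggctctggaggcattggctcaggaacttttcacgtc
Fstl5: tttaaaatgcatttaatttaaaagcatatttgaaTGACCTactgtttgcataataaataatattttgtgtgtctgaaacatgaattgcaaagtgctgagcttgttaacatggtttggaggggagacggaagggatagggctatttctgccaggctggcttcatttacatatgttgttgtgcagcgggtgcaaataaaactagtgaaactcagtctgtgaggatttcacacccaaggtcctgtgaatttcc
A match is a string of letters and not a measured binding site.

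Nr2f2 encodes COUP-TFII, an orphan nuclear receptor that patterns the forebrain and marks neurons of the medial amygdala and preoptic area. It had 31.0, 44.7 and 67.8 CPM in Esr1-high females against 22.04, 28.5 and 39.1 CPM in Esr1-low females. The 2 Esr1-high males had 53.2 and 87.2 CPM and Esr1-low males had 33.6, 45.7 and 61.6 CPM. The sides overlapped in both sexes, with a log2 difference of 0.85 ± 0.15 (adjusted p = 0.027; 17 of 22 refits). Adcyap1 encodes PACAP, a peptide of stress and arousal circuits, and its gap was widest in females. Esr1-high females had 2.94, 7.28 and 9.88 CPM of Adcyap1 and Esr1-low females 0.692, 1.52 and 1.80 CPM, while males overlapped, at 8.81 and 18.5 CPM on the Esr1-high side and 3.58, 6.14 and 12.2 CPM on the Esr1-low side. The log2 difference of Adcyap1 was 1.91 ± 0.35 (adjusted p = 0.0368; 15 of 22 refits).

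Gldn encodes gliomedin, an adhesion protein known for assembling nodes of Ranvier in peripheral nerve. Its levels were 8.85, 13.3 and 27.7 CPM in Esr1-high females and 3.87, 5.47 and 5.72 CPM in Esr1-low females. Esr1-high males had 15.1 and 28.3 CPM, and Esr1-low males 6.89, 10.1 and 12.4 CPM. No Esr1-high library fell among the Esr1-low libraries of its sex, and the log2 difference was 1.28 ± 0.22 (adjusted p = 0.027; 17 of 22 refits). Gldn lies at chr9:54286486-54341777, with 18.3 kb between it and Cyp19a1 at chr9:54165937-54268164. Since the strand setting of the counting is not given in the sources used here, the counts of neighbouring or overlapping genes are less certain than others.

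**Figure D2:**
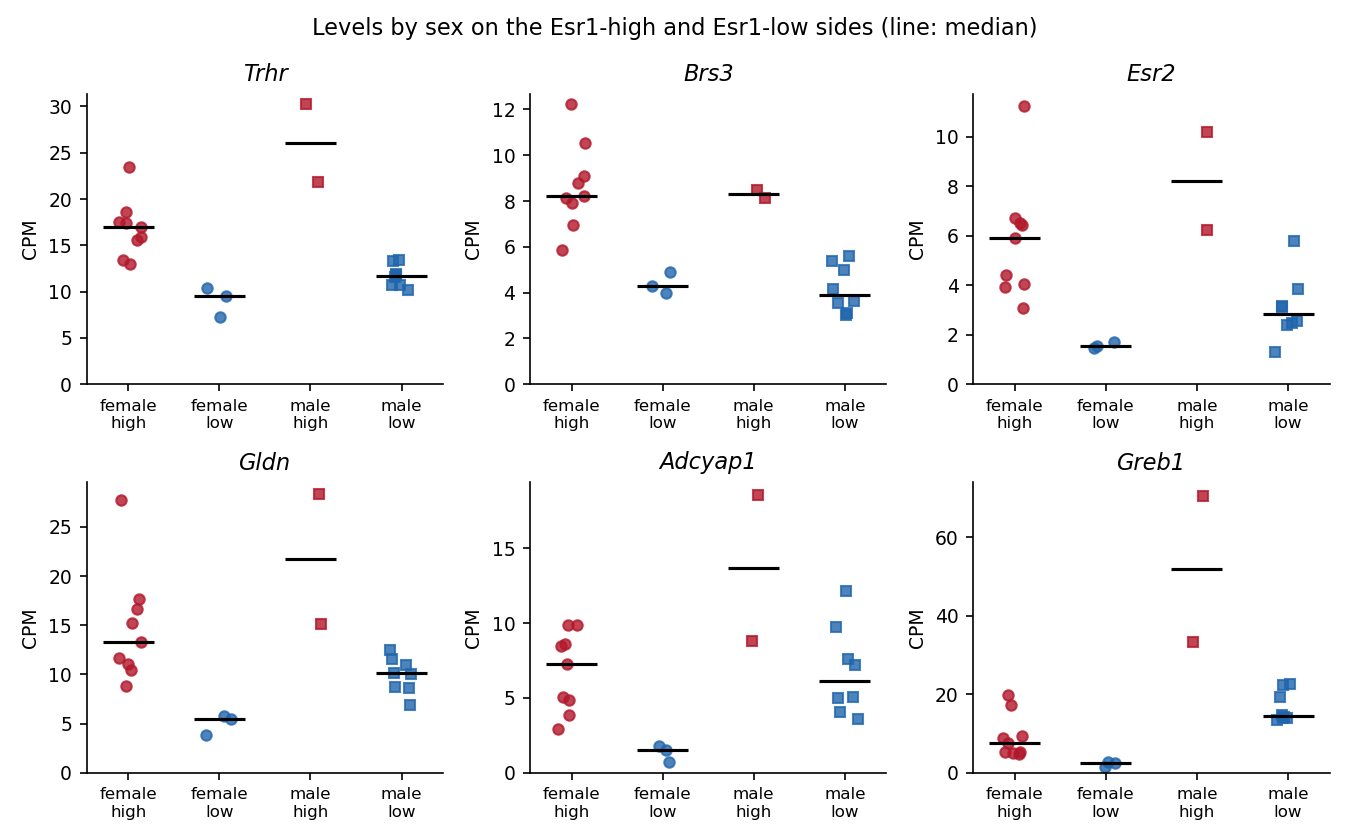
CPM (vertical axes) of Trhr, Brs3, Esr2, Gldn, Adcyap1 and Greb1 in each library, with Esr1-high females, Esr1-low females, Esr1-high males and Esr1-low males from left to right and a line at each median. For Trhr, Brs3, Esr2, Gldn and Greb1 the Esr1-high points lie above the Esr1-low points of the same sex, and for Adcyap1 the males overlap.

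The other genes called higher include a growth factor and parts of the synapse and the cell surface. Angpt1, the ligand of the endothelial Tie2 receptor, had 4.65, 6.68 and 8.61 CPM in Esr1-high females against 1.65, 4.31 and 4.43 CPM in Esr1-low females (log2 difference 1.10 ± 0.20, adjusted p = 0.0368). Its males overlapped, at 7.38 and 8.50 CPM on the Esr1-high side and up to 8.35 CPM on the Esr1-low side. Grik1, a kainate receptor subunit, had 19.9, 28.4 and 45.5 CPM in Esr1-high females against 16.2, 17.3 and 17.6 CPM in Esr1-low females. In males Grik1 was 43.7 and 62.0 CPM on the Esr1-high side and 23.7, 31.4 and 39.6 CPM on the Esr1-low side (log2 difference 0.68 ± 0.14, adjusted p = 0.0462). Both sexes were thus separated for Grik1. Arhgap24, which switches off Rac-type GTPases, was separated in both sexes as well and differed by 0.64 ± 0.12 (adjusted p = 0.0376). The protocadherin genes Pcdh7 (0.56 ± 0.11) and Pcdh17 (0.59 ± 0.12) both had an adjusted p of 0.0462. Fstl5 (0.61 ± 0.12, adjusted p = 0.0462), the phosphatase 1 regulator Ppp1r17 (1.06 ± 0.21, adjusted p = 0.0498) and the G protein gamma subunit gene Gng2 (0.42 ± 0.09, adjusted p = 0.0498) complete the genes called higher. Without MS5 the difference of Gng2 was 0.41 (adjusted p = 0.0516). Pcdh17, Fstl5, Ppp1r17 and Gng2 fall outside the naming rule and were added after their values were seen.

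Usp2, which encodes a deubiquitinating enzyme, was the call in the other direction. Esr1-high females had 47.1, 56.0 and 69.1 CPM and Esr1-low females had 62.5, 68.3 and 78.9 CPM. Esr1-high males had 39.3 and 48.38 CPM, and Esr1-low males had 48.44, 59.2 and 62.3 CPM. Females overlapped and males just did not, with a log2 difference of -0.43 ± 0.08 (adjusted p = 0.0376; 12 of 22 refits). The next genes in this direction were Igfbp4, a binding protein of insulin-like growth factors (-0.50 ± 0.10, adjusted p = 0.0547), and the metallothionein gene Mt1 (-0.48 ± 0.10, adjusted p = 0.0562), and neither passed. Over both sexes the Mt1 medians ran the other way, at 115.5 CPM on the Esr1-high side and 107.0 CPM on the Esr1-low side. By sex they were 115.5 against 117.1 CPM in females and 101.6 against 105.2 CPM in males.

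Within females, 12 of the 17 called genes had sides that did not overlap, against 3.03% of all genes tested. Within males 11 of the 17 did not overlap, against 5.6%, and in both sexes 9 did not (0.296% of all genes tested): Trhr, Gldn, Brs3, Esr2, Arhgap24, Greb1, Grik1, Ppp1r17 and Gng2. These shares describe genes that were called on the same libraries. Fitted in the 12 females alone, 6 genes were called higher and 4 lower, among them Adcyap1 (2.54 ± 0.39, adjusted p = 0.0251), Usp2 (-0.41 ± 0.07, adjusted p = 0.0323) and Slc17a6, the vesicular glutamate transporter gene of subcortical neurons (1.66 ± 0.25, adjusted p = 0.0251). In the 10 males alone, 0 genes were called by edgeR, with 754 at an unadjusted p under 0.05 and 2 libraries on the Esr1-high side. All 17 genes had the same direction in both sexes. The difference between the sides was not shown to differ by sex for any gene (0 calls in edgeR and in limma voom, with 404 and 755 genes at an unadjusted p under 0.05). Nor was it shown to differ by treatment (0 calls in both tools, 288 and 516 genes) or by number set (0 calls in both tools, 905 and 1938 genes).

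The 16 libraries outside both sides give a look at the same genes in samples that the split did not use. These are the 11 of the middle, with Esr1 between 13.6 and 18.3 CPM, and the 5 left out for Mbp. Each gene was fitted against log2 Esr1 CPM with sex, treatment, number set and Mbp above or below 7300 CPM as terms. The last term takes up the mean difference between the left-out and the middle libraries. A slope of 1 means that a gene rose in proportion to Esr1. Of 14376 genes tested, 25 had a positive slope called at an adjusted p under 0.05 (0.174%) and 6 a negative one (0.0417%). Of the 17 genes called between the sides, 16 kept their direction, where 51.6% of all genes had a slope above 0. There were 10 with an unadjusted p under 0.05 in the same direction, where 6.17% of all genes had a positive slope at that level. Gldn was called there too, with a slope of 0.85 ± 0.15 (edgeR adjusted p = 0.0393). Nr2f2 (0.60 ± 0.12) and Brs3 (0.80 ± 0.16) both stood at an adjusted p of 0.0559, and Esr2 had a slope of 1.15 ± 0.36 (adjusted p = 0.202). Trhr, the firmest call between the sides, had a slope of 0.31 ± 0.17 (adjusted p = 0.56), and that of Usp2 was 0.02 ± 0.08 (adjusted p = 0.967).

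The calls in these 16 libraries, also those given below for single genes, hinge on a few dissections. FC6 had the lowest Esr1 level of the series, 2.26 CPM, and without it 0 genes were called, while 17 of 17 genes kept their direction and 6 had an unadjusted p under 0.05. In the 11 middle libraries alone there were also 0 calls by edgeR, 17 of 17 genes in the same direction and 6 at an unadjusted p under 0.05. Without MS2, MC1, MC9, MC10, FS1, MS9, FS2, MC2, FS4 or MS8 the positive calls numbered 0, 2, 3, 6, 9, 10, 11, 12, 15 and 15 in that order. Without FC1 and without FC5 they numbered 81 and 42. The 5 libraries left out for Mbp, high in Mbp by the rule, held less of several called genes. Esr2 ran from 0.177 to 2.13 CPM in them and from 2.31 to 13.1 CPM in the middle libraries. Gldn ran from 1.64 to 9.04 CPM in the left-out libraries and from 11.5 to 22.7 CPM in the middle ones. The median of Esr1 was 9.33 CPM in the left-out libraries and 16.2 CPM in the middle ones. Between the left-out and the middle libraries Mbp thus moves opposite to Esr1. The fit held a term for Mbp above 7300 CPM, and the part of Mbp in the slopes was not tested beyond that term.

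**Figure D3:**
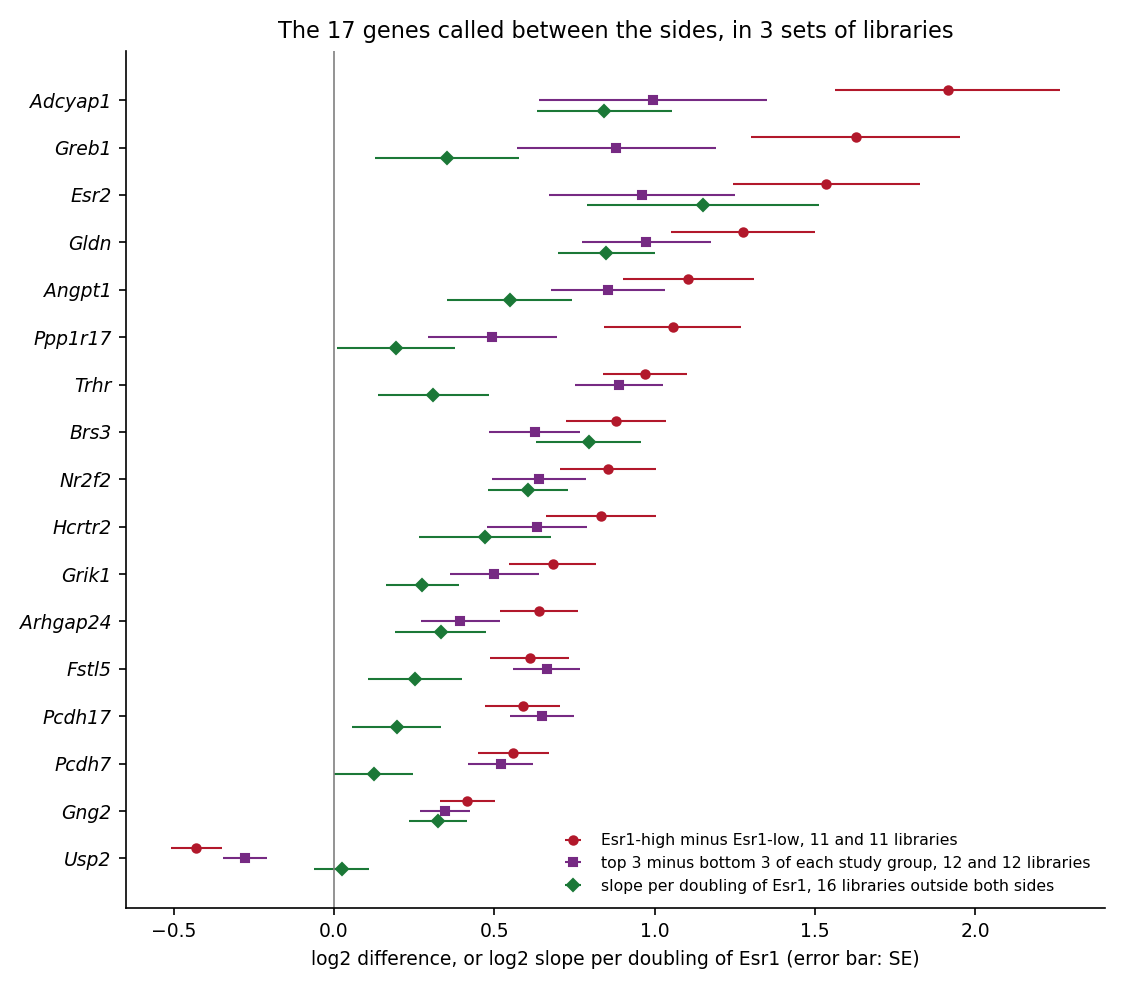
The 17 genes called between the sides (rows) with their log2 difference Esr1-high minus Esr1-low (circles), the log2 difference when the 3 highest and 3 lowest libraries of each study group are compared (squares) and the slope on log2 Esr1 in the 16 libraries outside both sides (diamonds), with bars of 1 SE. All circles and squares lie on the same side of 0 for a gene, and the diamonds do so for every gene but Usp2.

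To take sex and stress out of the split, the 33 libraries were also ranked inside each of the 4 groups, and the 3 highest were set against the 3 lowest of each. Both new sides hold 6 females and 6 males, and 17 of their 24 libraries are members of the original sides, so the result is not independent of it. Their Esr1 levels overlap, at 16.2 to 41.4 CPM on the new Esr1-high side and 7.503 to 16.9 CPM on the new Esr1-low side. FS4 and FS8, on the new Esr1-low side, held more Esr1 than MS9 on the new Esr1-high side. Numbers of 6 and above were 9 of 12 on the new Esr1-high side and 4 of 12 on the new Esr1-low side. Here edgeR called 1006 genes higher (6.36%) and 952 lower (6.02%) of 15826, and 14 of the 17 genes were among them, all 17 in the same direction. Without FS8 the counts were 336 higher and 305 lower, and without MC5 they were 456 and 369. Prlr, the prolactin receptor gene, was higher by 0.89 (adjusted p = 0.00427), with 39.3, 87.3 and 145 CPM on the new Esr1-high side and 27.7, 42.3 and 88.2 CPM on the new Esr1-low side. The highest value of the new Esr1-low side is that of MS5, and without MS5 the log2 difference of Prlr was 0.93 (adjusted p = 0.00441). Cyp19a1 (0.97, adjusted p = 0.0236), Esr2 (0.96, adjusted p = 0.0311), Pgr (0.38, adjusted p = 0.0248), the oxytocin receptor gene Oxtr (0.30, adjusted p = 0.0325) and the calcitonin receptor gene Calcr (0.38, adjusted p = 0.0214) were higher as well. The peptide genes Npy (-0.34, adjusted p = 0.00686), Sst (-0.33, adjusted p = 0.0116) and Penk (-0.34, adjusted p = 0.0276) were lower.

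A feature of the libraries moved with these differences. Across 15618 genes the log2 difference between the original sides had a Spearman correlation of 0.327 with transcript length, a description across genes that are not independent, and 0.385 across 15576 genes for the sides ranked inside groups. A per-library index, the correlation of a library's deviations from the mean of all libraries with transcript length, had a median of 0.239 on the Esr1-high side and 0.0793 on the Esr1-low side. With this index as a further term, edgeR called 0 genes between the original sides (1348 at an unadjusted p under 0.05) and 0 for the ranking inside groups (2421 at an unadjusted p under 0.05). The 17 genes kept their direction in both fits, at an unadjusted p under 0.05 in 17 and in 15 of them. In the 16 other libraries the correlation of slope and length was -0.0797. With log2 Mbp as a further term Trhr was the 1 gene called between the original sides. The part of transcript length and of Mbp in the differences was not tested beyond these fits.

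The gene lists that follow were chosen with earlier results of these data known, and their counts and medians are descriptions beside a median of -0.02 over all genes tested. Among 40 neuropeptide and hormone receptor genes, 33 had a difference above 0 and the median was 0.24, and 3 were called, Trhr, Brs3 and Hcrtr2. Prlr, which the choroid plexus also expresses, differed by 0.95 (adjusted p = 0.0567), and by 0.96 without MS5 (adjusted p = 0.0426). Prlr was called in 5 of 22 refits without 1 library, where its edgeR adjusted p reached 0.407. With all libraries Prlr, the neuromedin B receptor gene Nmbr (0.77, adjusted p = 0.0854) and Calcr (0.45, adjusted p = 0.131) did not pass. For the sides ranked inside groups, 13 receptor genes were called higher, among them Ghsr, the ghrelin receptor gene (1.62, adjusted p = 0.00603), and Nmbr (0.64, adjusted p = 0.0125), and 1 lower, the neurotensin receptor gene Ntsr2 (-0.30, adjusted p = 0.0246). The peptide genes themselves were evenly split: 13 of 28 had a difference above 0, with a median of -0.05, and Adcyap1 was the call. Npy (-0.26, adjusted p = 0.284), Sst (-0.22, adjusted p = 0.384), Penk (-0.41, adjusted p = 0.16), Crh (-0.17, adjusted p = 0.791), Tac1 (-0.17, adjusted p = 0.64), Gal (0.28, adjusted p = 0.507) and Cartpt (0.04, adjusted p = 0.911) did not pass. Of 23 estrogen- or androgen-linked genes of Esr1 neurons, 20 had a difference above 0 with a median of 0.33, and Greb1 and Brs3 were called. In the ranking inside groups 11 of the 23 were called higher and 0 lower. In that ranking 6.36% of all genes were called higher and 6.02% lower, and none of its calls, those of the receptor and hormone-linked genes included, was kept with the length index as a term.

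Genes of signalling by GABA and glycine, the inhibitory transmitters, which include receptors, transporters and synthesis enzymes, had 0 calls between the sides. Of the 26 genes in the list 25 had a difference above 0, with a median of 0.25, and 20 of 25 had a slope above 0 in the 16 other libraries. The nearest to the threshold were the receptor subunit genes Gabrg1 (0.38, adjusted p = 0.0562), Glra3 (0.82, adjusted p = 0.0562) and Glra2 (0.45, adjusted p = 0.0616). In the ranking inside groups 14 of the 26 were called higher, where 6.36% of all genes were, and 0 lower, and with the length index 0 were called. They include Glra2 (0.47, adjusted p = 0.00303) and Gad2 (0.33, adjusted p = 0.00906). Gabrq, the theta subunit of the GABA-A receptor, was called in the 16 other libraries with a slope of 0.64 (adjusted p = 0.0201). The enzyme gene Gad1 differed by 0.15 (adjusted p = 0.337) and the vesicular GABA transporter gene Slc32a1 by 0.07 (adjusted p = 0.812). Among 27 glutamate genes 20 had a difference above 0, with a median of 0.14, and Grik1 was the call. Of 12 genes of KCNQ channels, which carry the M-current that the study's title names, and of HCN and T-type channels, 8 had a difference above 0 and 0 were called, with Kcnq3 at 0.14 (adjusted p = 0.634) and Kcnq5 at -0.06 (adjusted p = 0.823).

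Marker genes of the neighbouring regions differed by region. Of 14 markers of the principal BNST and medial amygdala 12 had a difference above 0 with a median of 0.57. Calls were made for 4 of the 14 (Nr2f2, Brs3, Esr2 and Greb1), where 0.107% of all genes were called. In the 16 other libraries 13 of 14 had a slope above 0, where 51.6% of all genes did. Of 18 tested markers of the preoptic area and hypothalamus 17 had a difference above 0 with a median of 0.53 and 0 called, and 13 of 14 had a slope above 0 in the other libraries. Their summed level was 268, 360 and 497 CPM (lowest, median, highest) on the Esr1-high side, 198, 249 and 359 CPM on the Esr1-low side and 118, 155 and 215 CPM in the libraries left out for Mbp. Slc17a6, which labels glutamate neurons of the hypothalamus and thalamus, had 11.3, 26.2 and 31.96 CPM in Esr1-high females against 5.96, 8.56 and 9.48 CPM in Esr1-low females. Its males overlapped, at 31.3 and 60.0 CPM on the Esr1-high side and 9.24, 23.9 and 46.2 CPM on the Esr1-low side. The log2 difference of Slc17a6 over both sexes was 1.45 ± 0.32 (adjusted p = 0.0651), and 1.44 without MS5 (adjusted p = 0.04995). Slc17a6 was called in 3 of 22 refits without 1 library, where its edgeR adjusted p reached 0.345. Irs4, an insulin receptor substrate of the hypothalamus, differed by 0.86 (adjusted p = 0.0547) and was called in the 16 other libraries, with a slope of 0.68 (adjusted p = 0.0324). The hypothalamic transcription factor genes Sim1 (1.85, adjusted p = 0.0854) and Otp (1.49, adjusted p = 0.0876) did not pass, and Nkx2-1 differed by -0.04 (adjusted p = 0.892). Of 15 imprinted and secretory genes rich in the hypothalamus, 13 had a difference above 0 with a median of 0.31.

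Striatal markers leaned the other way. All 16 had a difference below 0, with a median of -0.32 and 0 calls, and all 16 had a slope below 0 in the 16 other libraries. Their summed level was 2098, 3294 and 5183 CPM on the Esr1-high side and 3088, 4479 and 7218 CPM on the Esr1-low side, so the ranges overlapped. Ppp1r1b, which encodes DARPP-32, had 324, 446 and 613 CPM in Esr1-high females against 489, 745 and 768 CPM in Esr1-low females, and 204 and 397 CPM in Esr1-high males against 366, 543 and 747 CPM in Esr1-low males (-0.54 ± 0.15, adjusted p = 0.13). The dopamine receptor genes Drd1 (-0.37, adjusted p = 0.319) and Drd2 (-0.36, adjusted p = 0.216) and the adenosine receptor gene Adora2a (-0.54, adjusted p = 0.13) did not pass. In the ranking inside groups 3 of the 16 were called lower, Ppp1r1b (-0.50, adjusted p = 0.0143), Penk and Syndig1l (-0.48, adjusted p = 0.00832), where 6.02% of all genes were called lower, and 0 were called with the length index. The adBNST list showed no lean, with 8 of 17 above 0 and a median of -0.03. Of 9 septal markers 7 had a difference above 0 (median 0.28, 0 calls), and 8 of 9 had a slope above 0 in the other libraries, where Zic2 was called (1.00, adjusted p = 0.0324). Of 14 markers of the pallidum and cholinergic basal forebrain 6 had a difference above 0. The region markers move with the genes named above, and their part in those differences was not tested.

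**Figure D4:**
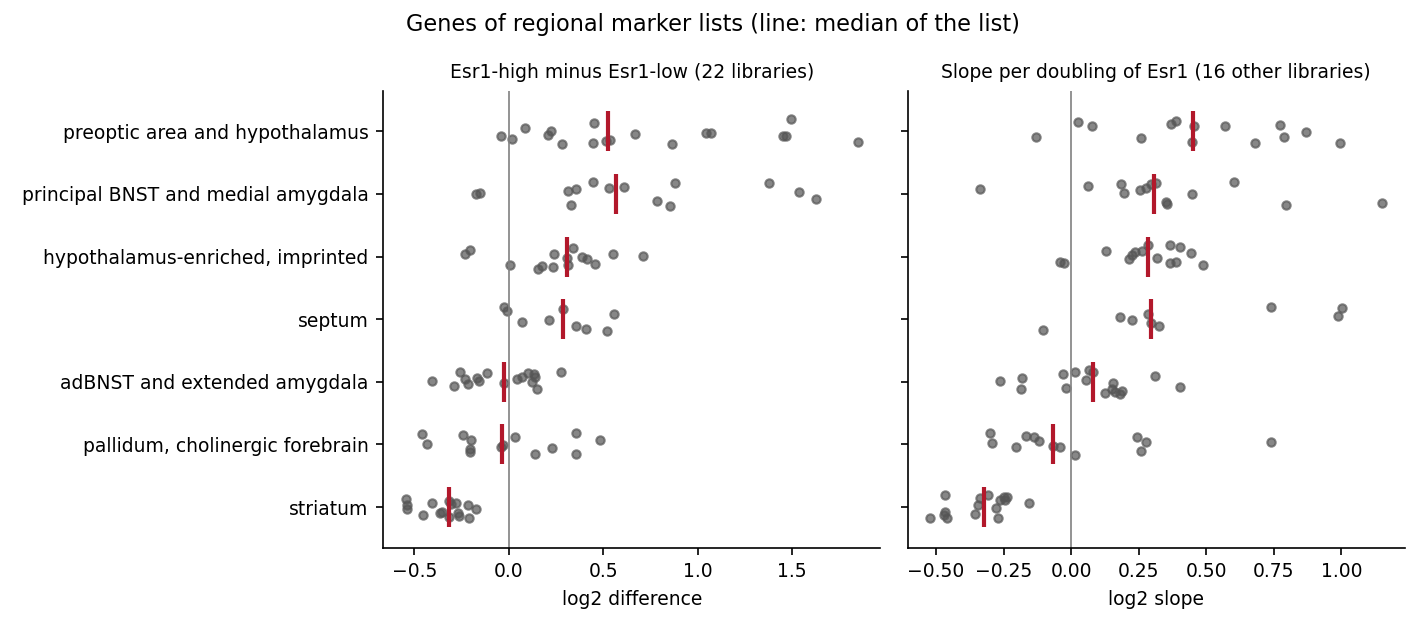
Members of 7 region lists (points) by log2 difference Esr1-high minus Esr1-low in the 22 libraries of the sides (left panel) and by slope on log2 Esr1 in the 16 other libraries (right panel), with a line at each list's median. Preoptic and principal BNST markers lie mostly above 0 in both panels, and striatal markers lie below 0 in both.

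Cell type lists moved less evenly. Of 12 general neuronal genes 7 had a difference above 0 (median 0.07), with summed levels of 6994 to 8037 CPM on the Esr1-high side and 6974 to 7786 CPM on the Esr1-low side. Of 15 oligodendrocyte genes, a cell type whose Mbp the rule used, 12 had a difference below 0 (median -0.16), with summed levels of 3161, 4542 and 9192 CPM on the Esr1-high side against 3498, 8133 and 12080 CPM on the Esr1-low side. All 12 endothelial genes had a difference below 0 (median -0.19), as did all 10 ependymal genes (median -0.26). The ependymal genes had a slope above 0 in 10 of 10 cases in the other libraries, so their direction was not the same in both sets. Astrocyte genes (6 of 13 above 0) and microglial genes (7 of 12 above 0) were split. Of 78 cytosolic ribosomal protein genes 74 had a difference below 0 (median -0.22), and of 77 oxidative phosphorylation genes 68 did (median -0.14). No gene of these 8 lists was called between the sides. Summed levels of oligodendrocyte, ribosomal and region genes move with the split, but the sums are not adjusted for number set, which the sides hold unevenly. Within each number set the Mbp medians of the sides lay closer together, as given above. The part of these sums in the called genes was not tested.

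**Figure D5:**
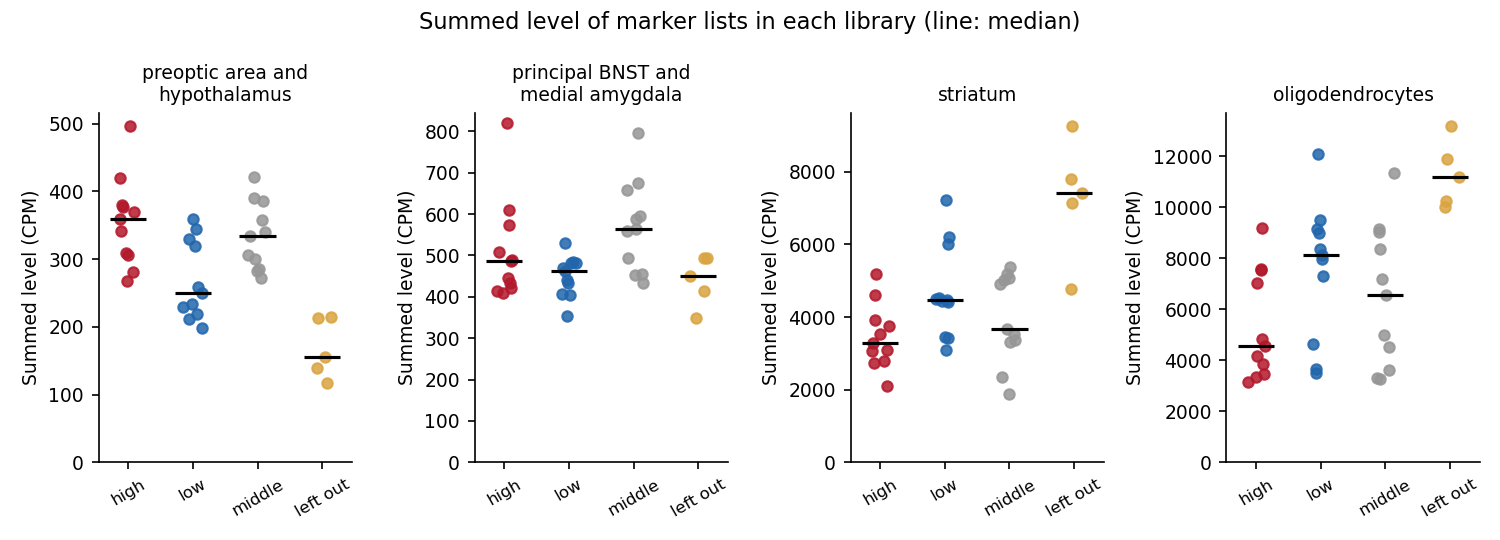
Summed CPM (vertical axes) of the preoptic and hypothalamic, principal BNST and medial amygdala, striatal and oligodendrocyte lists in each library of the Esr1-high side, the Esr1-low side, the middle and the 5 libraries left out for Mbp. The preoptic sum has a median of 360 CPM on the Esr1-high side and 249 CPM on the Esr1-low side, and the ranges of the sides overlap in all 4 panels. The sums are not adjusted for number set, which the sides hold unevenly.

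Total counts were 18.11 to 40.63 M a library on the Esr1-high side and 15.9 to 40.14 M on the Esr1-low side, in a series of 9.06 to 84.84 M. The level of 1 read is thus far below the levels given here for the called genes. Stress response lists held 0 calls between the sides: of 23 glucocorticoid target genes 5 had a difference above 0, and of 25 immediate early genes 7 did, with medians of -0.15 and -0.17. In the ranking inside groups 4 of the 23 and 4 of the 25 were called lower and 0 higher, where 6.02% of all genes were called lower, and 0 were called with the length index.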

How the data were processed

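RNA-seq libraries of adBNST dissections were analysed from the deposited table of counts of reads per gene symbol, whole numbers with no scaling applied. Per the labels' protocols, poly-A RNA was pulled down and libraries were made with a stranded kit. The submitters' processing notes list STAR, featureCounts, DESeq2 and the mm10 build. Annotation, counting strand and filters were not given in the sources used here. All columns were matched to libraries by name, and 0 were left over. The table has 25230 genes, 3439 with no count. The closest pair of libraries in any group differed by a chi-square of 6.89 a gene, more than counting noise, and all were kept as separate.

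CPM were computed on column totals. Genes were tested with edgeR 4.0.16 (R 4.3.3; filterByExpr by side, TMM, quasi-likelihood), with sex, treatment, number set and side as terms, and called at an adjusted p under 0.05. Limma 3.58.1 and DESeq2 1.42.0 served as alternatives. The fit was tested on simulated data with the same spread for every gene and no effect of sex, treatment, number set or transcript length. There 5 of 181 calls were false, which does not measure the error in the real libraries. The members, lists and tests were chosen with earlier results of these data known, and ranking inside groups, the fits by sex and the Mbp and length terms were added later. Named are the 10 smallest p in each direction among the called genes (3 where fewer than 3 were called), up to 4 called members of a list and a fixed panel, of which 1 gene is not reported here. The length index is a library's Spearman correlation, over 15618 genes, of transcript length (the longest GENCODE transcript) with log2(CPM + 0.5) minus the gene's mean over all libraries.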

Additional observations from a re-analysis of the deposited data

Results flagged for a closer look

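Across the 17 called genes and Esr1, each of the 4 study groups was checked for a library far from the others of its group. The measure was the gap to its nearest neighbour as a share of the group's range, with limits of 0.493 for 9 libraries and 0.466 for 10. Of 72 checks 7 stood out. The checks share libraries and use genes called on some of them, so they are not independent and no rate expected by chance is given. Trhr was 30.24 CPM in MS7, with the next stressed male at 18.09 CPM. MS7 was also highest among stressed males for Fstl5, at 67.96 CPM with the next at 51.66 CPM, and for Gng2, at 380.3 CPM with the next at 300.6 CPM. MS7 is 1 of the 2 males of the Esr1-high side. Brs3 was 8.121 CPM in MC8, the other of these males, with the next control male at 5.567 CPM. MC9, a library of the middle, was highest among control males for Greb1, at 56.85 CPM with the next at 35.51 CPM, and for Grik1, at 66.5 CPM with the next at 43.68 CPM. Nr2f2 was 96.41 CPM in MC5, also of the middle, with the next control male at 65.16 CPM. Whether these levels come from the dissection or from the animal was not tested.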

How the results depend on the processing

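All 17 genes kept their direction under each of the 22 other settings of the comparison between the sides, and 16 of 17, all but Usp2, in the slope of the 16 other libraries. The 22 settings share libraries with the fit that made the calls, so the kept direction there is no independent support. Ranking on TMM library sizes gave the same sides. Counts of genes called higher and lower on the Esr1-high side, 16 and 1 as reported, were 5 and 0 with side as the only term, 97 and 44 with the 4 groups and number set, 40 and 6 with no number set, 0 and 0 within numbers 1 to 5, 4 and 0 within numbers 6 and above, and 39 and 6 with no low-count filter. DESeq2 gave 178 and 52, limma voom 62 and 39, the top and bottom 8 gave 1 and 0, the top and bottom 16 gave 87 and 44, Esr1 as a continuous term in 33 libraries 1050 and 965, and all 38 libraries ranked 1424 and 2244. Added after the data were seen, females alone gave 6 and 4, males alone 0 and 0, ranking inside groups 1006 and 952, the Mbp term 1 and 0, and the length index 0 and 0, also with ranking inside groups. Leaving out 1 library gave 1 to 64 higher and 0 to 19 lower, and 336 to 1396 higher and 305 to 1451 lower for ranking inside groups. The label number as a replicate block in place of number set gave 16 higher and 0 lower, and 8 of the 17 genes were still called. Of 55 pairs that share a number, 41 had deviations from the group mean that correlated above 0.1, with a median of 0.289 and a minimum of -0.486. Other pairs had a median of -0.0904. With deviations from the mean of group and number set, 22 of the 55 were above 0.1 and the median was -0.014, against 0.00971 in other pairs. The numbers are therefore not taken to pair libraries within a number set. The slope in the 16 other libraries, 25 positive and 6 negative as reported, gave 0 and 0 in the middle 11, 48 and 10 with no low-count filter, 0 and 0 with no number set, 823 and 844 with Esr1 as the only term, and 315 and 247 in limma voom. Leaving out 1 library gave 0 to 81 positive and 0 to 9 negative slopes. The cause of these changes was not tested. The tests of the make-up and of the interactions kept their side of the threshold under each alternative run. In simulated counts for the same 22 libraries, 76 of 100 genes changed 1.5-fold and 100 of 100 changed 2-fold were recovered. The simulation gave every gene the same spread, changed only genes with more reads, and held no effect of sex, treatment, number set or transcript length. Its shares therefore do not measure the error of the reported fit.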

Other observations

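Some genes were called with Esr1 in the 16 libraries outside both sides and not between the sides, a difference that was not itself tested. They were chosen after their values were seen. As given above, 0 genes were called there without FC6, and 0 in the 11 middle libraries alone. Dlx1, a transcription factor gene of GABAergic neurons, had a slope of 0.65 (edgeR adjusted p = 0.0463) and the serotonin receptor gene Htr7 one of 0.62 (adjusted p = 0.0463). Another serotonin receptor gene, Htr4, had a negative slope, -0.70, as did Gjb1, a gap junction gene of oligodendrocytes. Genes of motile cilia, among them Tekt1, Daw1 and Ttll9, were also called with a positive slope. In the same direction, 10 of 10 ependymal markers had a slope above 0, with a median of 0.62, whereas their median difference between the sides was -0.26. The summed ependymal level was 127 CPM at the median on the Esr1-high side and 69.8 CPM on the Esr1-low side, so the summed level and the fitted differences ran in opposite directions. The sums, unlike the fits, take no account of number set, which the sides hold unevenly.

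Monoamine receptor genes showed little lean between the sides, with 14 of 23 above 0 and 0 called, and cortical and hippocampal markers had 10 of 12 above 0 with a median of 0.33 and 0 called.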
